A study of Mus musculus with 72 samples.

Results

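The livers compared here are those of conventional (specific-pathogen free, SPF) mice collected at zeitgeber time 10 (ZT10, 10 h after lights on), with the hepatocyte clock deleted or intact. The members are the 3 libraries labelled L-Bmal1-KO SPF ZT10 and the 3 labelled WT SPF ZT10, chosen by genotype, microbial status and timepoint alone, 6 of the 72 libraries of the series. The series measured liver mRNA in mice with and without a hepatic clock, raised with microbes or germ free (GF), at 6 times of day with 3 mice per group and time, to ask how the liver clock and the gut microbiota shape the hepatic transcriptome. WT mice carried Bmal1 fl/fl (loxP-flanked Bmal1 without Cre), and LKO mice carried Bmal1 fl/fl with Albumin-Cre, so both groups were floxed and differed by the Cre. All were C57BL/6 males under equal light and dark periods with food at all times, moved to single cages at 10 to 14 weeks of age and killed some weeks later. Albumin-Cre acts in hepatocytes, whereas the RNA came from whole liver, which also holds Kupffer, endothelial, stellate and bile duct cells. In such bulk RNA fewer cells of a type and less RNA per cell cannot be told apart.

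The mammalian clock is a feedback loop. BMAL1 (gene Arntl) pairs with CLOCK or NPAS2 and binds E-box elements to drive the PER and CRY genes, whose proteins return to block that pair, while the REV-ERB receptors (Nr1d1 and Nr1d2) repress Arntl, Npas2, Clock and Cry1 through elements that the ROR receptors activate. Output factors such as DBP, TEF and HLF act at D-box elements, where NFIL3 opposes them. In liver this loop times lipid, glucose and xenobiotic metabolism, and late in the light phase the REV-ERB targets of a normal mouse are near their trough.

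The regulatory sequences of 4 clock genes show the elements this loop is known to use, in genes that moved both ways. They are the clock genes with the smallest p-values in either direction whose promoter held one of the elements searched, taken as the 250 bases before the start in RefSeq (GRCm38.p6) and printed 5′ to 3′ on the gene's own strand, with the element in capitals. Cry1 (chr10:85185055-85185304, minus strand) held an E-box that began 60 bases before the start, and Tef (chr15:81802423-81802672, plus strand) held an E-box that began 127 bases before it. Per3 (chr4:151044666-151044915, minus strand) held a pair of D-boxes at 205 and 158 bases, and Nfil3 (chr13:52981040-52981289, minus strand) held the core of a ROR element on the other strand at 12 bases.
Cry1: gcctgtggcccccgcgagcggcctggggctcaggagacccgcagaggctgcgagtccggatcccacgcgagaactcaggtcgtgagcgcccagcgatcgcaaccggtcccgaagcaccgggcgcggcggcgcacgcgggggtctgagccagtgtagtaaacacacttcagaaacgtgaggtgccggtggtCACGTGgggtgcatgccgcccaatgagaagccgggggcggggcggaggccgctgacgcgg
Nfil3: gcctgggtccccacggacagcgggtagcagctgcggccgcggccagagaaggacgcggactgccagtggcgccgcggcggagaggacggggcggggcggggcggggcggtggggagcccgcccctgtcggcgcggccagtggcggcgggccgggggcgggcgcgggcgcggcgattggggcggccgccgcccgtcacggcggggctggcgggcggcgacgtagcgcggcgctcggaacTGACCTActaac
Per3: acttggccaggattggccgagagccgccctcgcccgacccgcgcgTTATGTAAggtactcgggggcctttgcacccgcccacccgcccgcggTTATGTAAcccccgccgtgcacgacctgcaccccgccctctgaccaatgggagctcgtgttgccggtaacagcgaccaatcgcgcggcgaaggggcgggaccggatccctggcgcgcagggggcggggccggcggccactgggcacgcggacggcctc
Tef: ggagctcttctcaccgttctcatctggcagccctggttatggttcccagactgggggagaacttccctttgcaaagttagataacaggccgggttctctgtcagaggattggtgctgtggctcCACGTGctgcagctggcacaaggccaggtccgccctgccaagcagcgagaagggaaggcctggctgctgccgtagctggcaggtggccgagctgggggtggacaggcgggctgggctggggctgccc
The elements searched on both strands were the E-box CACGTG, the D-box TTATGTAA and the ROR core TAGGTCA, and they lay in 6.02%, 0.819% and 2.23% of all 32851 promoters of that length. Of the other clock genes, Ciart held 3 E-boxes and Per1 and Bhlhe41 held 1 each, while Arntl, Clock, Npas2, Nr1d1, Nr1d2 and Dbp held none of these letters in this window. Among genes with a promoter in the table, an E-box lay in 14.1% of the 619 that were lower in LKO livers, in 9.46% of the 592 that were higher, and in 9.9% of the 10186 tested. A D-box lay in 2.1%, 1.01% and 0.638% of the same groups, and a ROR core in 2.91%, 3.55% and 2.27%. These shares describe letters in a fixed window and were not tested.

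At ZT10, 1603 of 13442 genes tested (11.9%) differed between SPF LKO and SPF WT livers at an adjusted p under 0.05, called changed below. Of these, 790 (5.88%) were higher and 813 (6.05%) lower in LKO, the median size of change was 0.87 on the log2 scale, and 321 and 367 genes passed a log2 fold change of 1 either way. The groups did not overlap in 28.4% of all genes tested, called or not, and the median log2 fold change over all genes tested was -0.002. Without LKO replicate 1 or 3 the count was 947 or 1063. All differences are LKO minus WT unless said otherwise, on the log2 scale of edgeR's fit with its standard error (SE), and levels are CPM (counts per 1000000 mapped to genes), which are not scaled for gene length and are compared only within a gene. The labels do not say more of the replicates than that each is a sample of its group, so p-values measure the spread between these samples.

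The 6 libraries held 18383805 to 19979329 counts each with 19000 to 20110 genes detected, inside the range of the series (17369927 to 22076113). Alb, the gene of serum albumin, took 9.52%, 7.75% and 8.22% of counts in WT and 4.6%, 4.48% and 4.71% in LKO, and fell by 0.99 (SE 0.16, adjusted p = 0.000782). Of the 10 hepatocyte markers, Alb fell and Fga rose, none was at 0, and their summed level was 100900 to 133800 CPM in WT and 74420 to 84340 in LKO. The sum rests mostly on Alb, and the other 9 markers together stood at 28420 to 34630 CPM in WT and 34140 to 38650 in LKO. The 10 Kupffer cell and 10 stellate cell markers held no called gene, with summed levels of 324.7 to 417.3 CPM in WT against 269.1 to 383.6 in LKO and of 261.1 to 329.2 against 290.8 to 376.4. Of the 10 endothelial markers 3 fell (Clec4g, Fcgr2b and Dnase1l3) and Lyve1 rose. Pecam1, Stab2, Kdr, Cdh5, Tek and Oit3 were not called, at -0.02, 0.13, -0.27, -0.14, -0.08 and -0.08. The summed level of all 10 did not overlap between groups, at 324.4 to 327.7 CPM in WT and 252.3 to 286.3 in LKO. That sum includes the 3 markers that fell, such as Clec4g, at 80.4, 44.7 and 66 CPM in WT and 46.6, 36.6 and 41.7 in LKO. Of the 7 bile duct markers, 5 were tested and Spp1 and Sox9 rose while Krt19, Krt7 and Epcam were not called. Their sum was 38.66 to 61.57 CPM in WT and 70.62 to 136.1 in LKO. Most of it was Spp1, at 38.3, 53.6 and 32.3 CPM in WT and 60.8, 58.8 and 123 in LKO. Alas2 fell among the 5 red blood cell markers (281.4 to 526.2 CPM in WT and 208.0 to 377.3 in LKO), and none of the lymphocyte and neutrophil markers was called (2.862 to 6.364 and 3.959 to 6.617 CPM, with Ly6g at 0). Of 10 markers of adipose tissue, pancreas and gut, Plin1, Prss1, Pnlip and Fabp6 were at 0 in all 6 libraries, and Cela1 rose within a sum of 23.97 to 54.89 CPM in WT and 76.71 to 87.24 in LKO. The part of these cell types in the gene changes below was not tested.

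Among the activators of the clock, 4 of 6 genes rose and none fell (66.7% called, beside 11.9% of all genes tested). Arntl (chr7:113207465-113314126), the deleted gene itself, stood at 1.81, 1.40 and 0.624 CPM in WT and at 8.52, 9.52 and 9.10 CPM in LKO. Every LKO library was above every WT library, and the gene was 2.83 higher (SE 0.30, adjusted p = 1.98e-05). The counts do not separate the exons that Cre removes from the rest of the gene, so this level says nothing of the intact transcript. Npas2, which encodes the partner that can stand in for CLOCK, was near absent in WT, with 0.117, 0.0936 and 0 CPM, and was present in all LKO libraries, with 14.4, 19.4 and 16.6 CPM (7.80, SE 0.31, adjusted p = 1.34e-09). The fitted fold of Npas2 rests on 4 counts in the WT group against 1054 in LKO. Clock rose from 56.1, 44.3 and 35.1 CPM to 102, 115 and 112 CPM (1.29, SE 0.14, adjusted p = 2.55e-05). Groups did not overlap for Npas2 or Clock. Rora was at 107, 123 and 102 CPM in WT and 103, 96.7 and 109 in LKO and Arntl2 was below 1 CPM in every library, with adjusted p of 0.709 and 0.589.

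**Figure D1:**
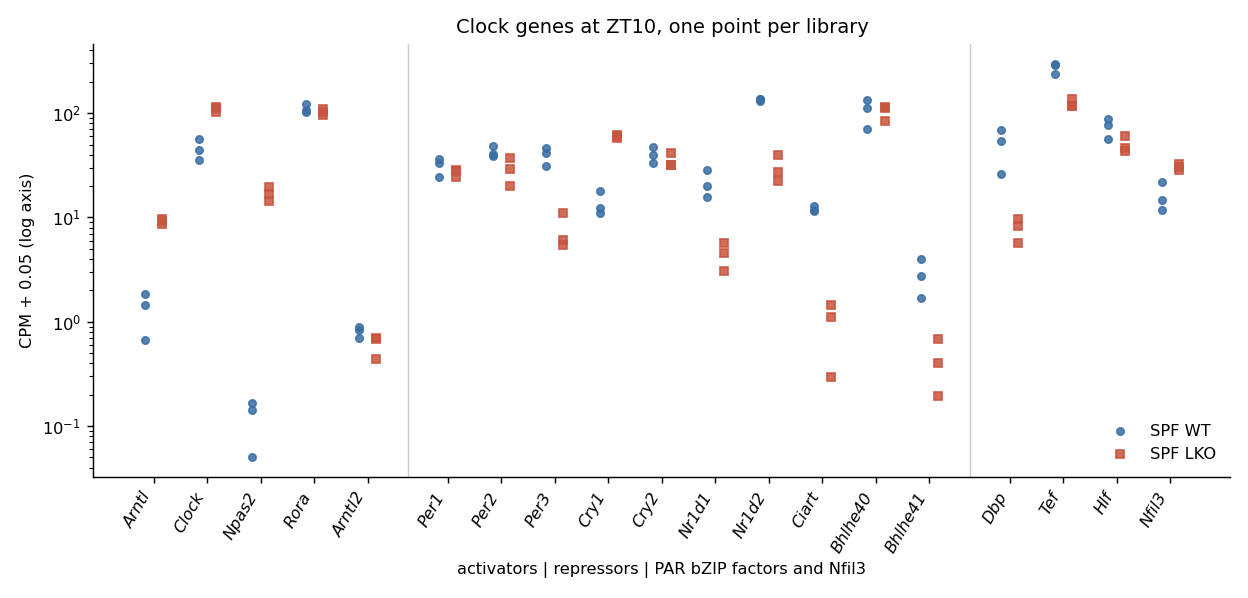
Level of the clock genes described in the 3 SPF WT (circles) and 3 SPF LKO (squares) libraries of ZT10, as CPM plus 0.05 on a log axis, ordered as activators, repressors and output factors. The LKO libraries lie above the WT libraries for Arntl, Clock, Npas2, Cry1 and Nfil3, below them for Per2 (not called), Per3, Nr1d1, Nr1d2, Ciart, Bhlhe41, Dbp and Tef, and among them for Rora, Cry2 and Bhlhe40.

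The repressors moved the other way, with 5 of 10 lower, 1 higher (60% called) and a median of -1.37. Ciart, an inhibitor of BMAL1 and CLOCK that carries the 3 E-boxes named above, stood at 12.9, 11.4 and 11.8 CPM in WT and 1.05, 1.41 and 0.243 CPM in LKO (-3.71, SE 0.43, adjusted p = 4.34e-05). Both REV-ERB genes fell, Nr1d1 from 15.7, 28.2 and 20 CPM to 4.51, 5.60 and 3.02 CPM (-2.28, SE 0.24, adjusted p = 2.48e-05). Nr1d2 fell from 132, 138 and 137 CPM to 27.3, 40 and 22.2 CPM (-2.18, SE 0.17, adjusted p = 1.3e-06). For these 3 genes no LKO library reached the lowest WT library. The period genes were unequal. Per3, with the D-boxes printed above, fell from 31.4, 46 and 41.7 CPM to 6.06, 10.9 and 5.35 CPM (-2.40, SE 0.22, adjusted p = 6.4e-06). Per2 was at 48.7, 40.6 and 38.5 CPM in WT and 20, 36.9 and 29 in LKO, which did not overlap but just missed the threshold (-0.57, SE 0.18, adjusted p = 0.0506). Per1, at 36.3, 33 and 24.1 CPM against 24.4, 28.3 and 27.9, overlapped between the groups (adjusted p = 0.496). Without LKO replicate 2, the highest of the 3 LKO libraries, Per2 passed the threshold at -0.79 (adjusted p = 0.00831). With DESeq2 it passed on all libraries (-0.57, adjusted p = 0.0249). The cryptochromes differed from one another. Cry1 was the only repressor that rose, from 18, 12.4 and 11.1 CPM to 57.4, 60.8 and 62.2 CPM (2.13, SE 0.17, adjusted p = 1.55e-06), and Cry2 was not called (-0.19, SE 0.15, adjusted p = 0.489). The E-box repressor Bhlhe41 fell from 1.63, 2.72 and 3.95 CPM to 0.351, 0.637 and 0.146 CPM (-2.84, SE 0.43, adjusted p = 0.000517), while Bhlhe40 was not called, at -0.03 (SE 0.19). Another gene overlaps 19% of the exonic bases of Bhlhe41 and 18.0% of those of Dbp, and reads there were not counted.

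Among the D-box factors, Dbp and Tef fell and their opponent Nfil3 rose. Dbp stood at 25.9, 53.8 and 68.3 CPM in WT and 9.57, 8.29 and 5.69 CPM in LKO (-2.65, SE 0.32, adjusted p = 7.21e-05). Tef, whose E-box is printed above, stood at 236, 289 and 298 CPM in WT and 118, 137 and 117 CPM in LKO (-1.14, SE 0.11, adjusted p = 1.07e-05). Hlf was lower on average but not called, at 56.9, 88.2 and 76.1 CPM against 43.5, 60.7 and 46.6 (-0.55, SE 0.19, adjusted p = 0.0807). It was called without WT replicate 1 or LKO replicate 2 (adjusted p = 0.0304 and 0.0449), and with DESeq2 (adjusted p = 0.0475). Nfil3 stood at 22, 11.8 and 14.7 CPM in WT and 28.3, 32.8 and 30.5 CPM in LKO, without overlap (0.93, SE 0.23, adjusted p = 0.0171). That call was lost without WT replicate 2, WT replicate 3 or LKO replicate 2, at 0.73, 0.87 and 0.87 with adjusted p of 0.0624, 0.0683 and 0.0551.

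Genes downstream of the clock changed in both directions, 5 of 22 tested upward and 10 downward, 68.2% in all. Rgs16, a regulator of G-protein signalling, was the most reduced, from 15.8, 64.9 and 36.7 CPM to 1.0, 4.05 and 0.292 CPM (-4.42, SE 0.71, adjusted p = 0.000818). Por, the electron donor of the microsomal cytochromes P450, fell from 408, 435 and 328 CPM to 89.9, 149 and 94.8 CPM (-1.81, SE 0.34, adjusted p = 0.00301). Nampt, the rate-limiting enzyme of NAD+ salvage, fell from 213, 184 and 167 CPM to 93.9, 90 and 88.1 CPM (-1.04, SE 0.11, adjusted p = 2.42e-05). In each of these the lowest WT library exceeded the highest LKO library. The deubiquitinase gene Usp2 fell by 1.64 (SE 0.17, adjusted p = 1.78e-05), the mitotic kinase gene Wee1 by 1.44 (SE 0.23, adjusted p = 0.000745) and Gys2, liver glycogen synthase, by 1.56 (SE 0.11, adjusted p = 5.55e-07). Noct, nocturnin, fell by 1.37 (adjusted p = 0.011), a call lost without WT replicate 1 (-0.92, adjusted p = 0.0511) or LKO replicate 1 (-1.24, adjusted p = 0.0596). The call was also lost in the fit of all 36 SPF libraries (adjusted p = 0.206). Here and below, that fit holds libraries of ZT14 and ZT18 that stood at the level of the other genotype, and their part in lost calls was not tested. Upward, Cdkn1a (chr17:29090976-29100727), which encodes the cell cycle inhibitor p21, went from 3.09, 0.749 and 0.884 CPM to 69.9, 56.4 and 85.4 CPM (5.54, SE 0.39, adjusted p = 5.71e-07). Elovl3 (chr19:46131897-46135694), a fatty acid elongase, went from 158, 75.9 and 116 CPM to 1491, 1413 and 1573 CPM (3.68, SE 0.26, adjusted p = 5.71e-07). Tars, threonyl-tRNA synthetase, rose by 1.15 (SE 0.13) and Pdk4, the kinase that switches off pyruvate dehydrogenase, rose by 2.04 (SE 0.29, adjusted p = 0.000277). Lpin1, at 389, 150 and 197 CPM against 288, 293 and 203, was not called (adjusted p = 0.908).

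**Figure D2:**
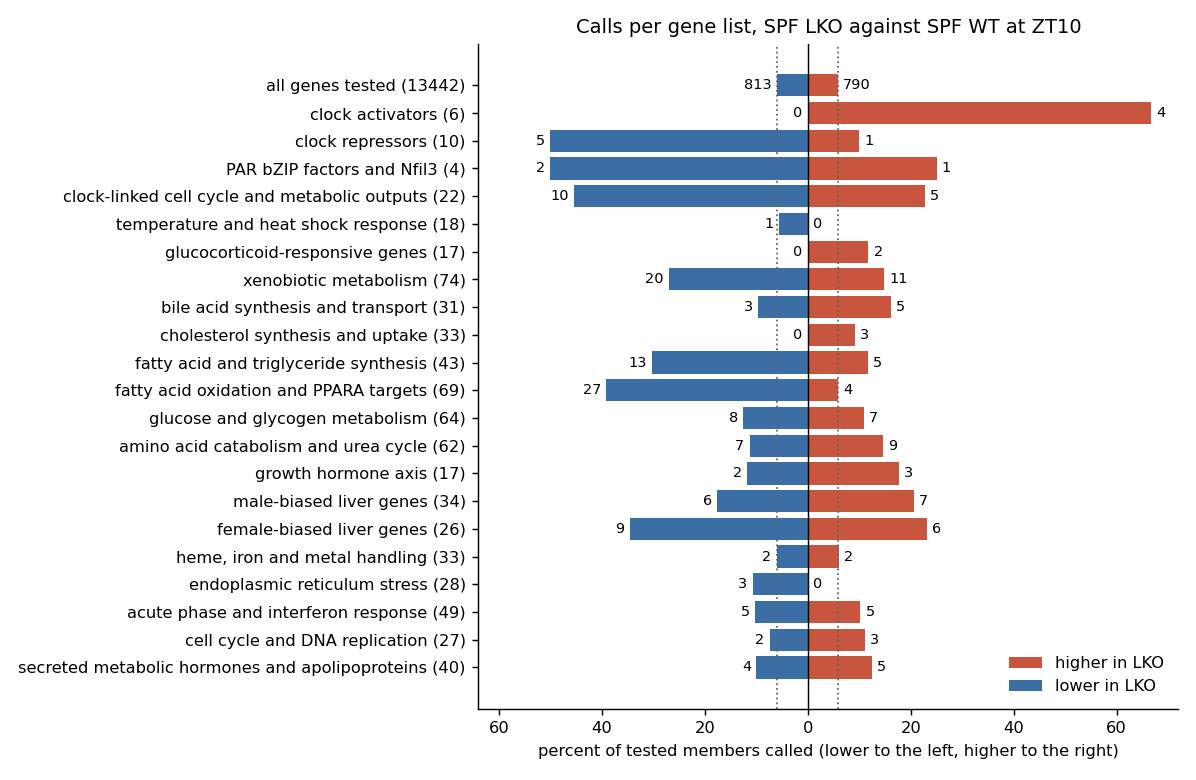
Share of each list's tested genes called higher (right) or lower (left) in SPF LKO than SPF WT at ZT10, in percent, with the number of genes at each bar's end and the number tested in parentheses. Dotted lines mark the shares over all genes tested, 5.88% higher and 6.05% lower, and the bars reach furthest for the clock lists, the female-biased genes and the oxidation of fatty acids.

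Among called genes whose mean log2 CPM reached 1 and whose groups did not overlap, most of the 10 largest increases were in genes that WT livers at ZT10 hardly expressed. The lincRNA 4930459C07Rik (chr10:96226020-96248866) had 3 counts over the WT libraries and 820 over the LKO libraries, a ratio of 270 with a 95% counting interval of 92 to 1.31e+03. Lpl (chr8:68880491-68907448), lipoprotein lipase, went from 22.2, 25.3 and 29.9 CPM to 879, 757 and 914 CPM (5.05, SE 0.19, adjusted p = 1.34e-09). Moxd1, a monooxygenase related to dopamine beta-hydroxylase, went from 0.175, 0.562 and 0.728 CPM to 86.2, 40.4 and 125 CPM (7.37, SE 1.0, adjusted p = 0.00018). All LKO libraries of the 3 genes lay far above all WT libraries. Slc34a2, a phosphate transporter, rose by 6.44 (SE 0.78), Ntrk2, the receptor of BDNF, by 5.99 (SE 0.55), Tox2 by 5.62 (SE 0.31), Loxl4, a lysyl oxidase, by 5.29 (SE 0.19) and the unnamed gene 3930402G23Rik by 4.76 (SE 0.37), with adjusted p from 9.42e-10 to 0.000149. In GF mice Moxd1 was already present in WT, at 42.7, 136 and 7.37 CPM, and its genotype difference there was 2.54 (adjusted p = 0.019). The GF effect of Moxd1 minus the SPF effect was -4.83, which the test of the difference did not call (adjusted p = 0.516).

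By the same rule the largest decrease was in Mup17 (chr4:61591929-61595871), a major urinary protein gene, from 501, 198 and 463 CPM to 4.01, 3.60 and 7.35 CPM (-6.27, SE 0.47, adjusted p = 1.13e-06). Mup genes are near identical and reads that fit several were not counted, so the value of this member is uncertain. Nat8, an N-acetyltransferase of the mercapturic acid pathway, went from 38.9, 19.1 and 37.9 CPM to 1.60, 1.09 and 1.56 CPM (-4.49, SE 0.31, adjusted p = 5.71e-07). Mme, the membrane peptidase neprilysin, went from 116, 72.2 and 75.3 CPM to 10.9, 5.05 and 7.78 CPM (-3.47, SE 0.27, adjusted p = 1.3e-06). The groups of all 3 genes were far apart. Rcan2, an inhibitor of calcineurin, fell by 3.46 (SE 0.28), Acot3, a peroxisomal acyl-CoA thioesterase with 20.6% of its exonic bases under another gene, by 4.73 (SE 0.64), and the unnamed genes Gm32468 and Gm13775 by 5.42 (SE 0.97) and 3.80 (SE 0.44). Asns, asparagine synthetase, fell by 3.18 (SE 0.73, adjusted p = 0.0107) and was no longer called without LKO replicate 1 (-2.91, adjusted p = 0.0548). Outside these, Clpx (chr9:65294260-65330658), the ATPase of a mitochondrial protease, had one of the best separated differences, from 88.3, 77.4 and 76.6 CPM to 571, 510 and 610 CPM (2.81, SE 0.11, adjusted p = 1.34e-09), and Avpr1a, the hepatic vasopressin receptor, rose by 2.05 (SE 0.19, adjusted p = 7.55e-06).

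Of 69 genes of fatty acid oxidation and PPARA targets, 27 were called lower, 4 higher and 38 not called. In all 44.9% were called, beside 11.9% of all genes tested, and the list median was -0.38 against -0.002 for all genes. Aldh3a2 (chr11:61223417-61267464), a fatty aldehyde dehydrogenase, fell from 576, 605 and 540 CPM to 118, 107 and 149 CPM (-2.20, SE 0.20, adjusted p = 4.32e-06). The peroxisomal thiolase gene Acaa1a fell from 128, 126 and 137 CPM to 62.3, 64.4 and 63.9 CPM (-1.03, SE 0.10, adjusted p = 1.08e-05). Fabp1, the liver fatty acid binding protein, fell from 8501, 4871 and 8122 CPM to 3601, 3565 and 3235 CPM (-1.04, SE 0.21, adjusted p = 0.00467). The LKO libraries of each gene lay below all WT libraries. The thioesterase Acot4 fell by 2.10 (SE 0.25). Ppara itself, the nuclear receptor of the list, stood at 101, 188 and 99.3 CPM in WT and 57.4, 80.4 and 56.5 CPM in LKO (-0.99, SE 0.28, adjusted p = 0.0354), a call lost without WT replicate 2 (-0.63, adjusted p = 0.137), LKO replicate 1 (-0.91, adjusted p = 0.131) or LKO replicate 3 (-0.90, adjusted p = 0.126). Cpt1a, the gate of mitochondrial oxidation, was called with DESeq2 (adjusted p = 0.0203) and with the 6 libraries alone (adjusted p = 0.045). In the main comparison it was at -0.49 (SE 0.15, adjusted p = 0.0513) and was not called. Acot1 and Fgf21, further PPARA targets, were not called either, at -0.99 and -0.66. The 4 genes that rose included Pdk4, described above, Hacl1 (0.94, SE 0.20) and Crot (0.68, SE 0.18), both peroxisomal. The call on Crot was lost without WT replicate 2 or 3 or LKO replicate 1 or 3 (0.60, 0.64, 0.65 and 0.53, with adjusted p of 0.0698, 0.0765, 0.0773 and 0.106) and in the fit of all 36 SPF libraries (adjusted p = 0.0546).

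Fatty acid and triglyceride synthesis had 13 of 43 genes lower and 5 higher, with a median of -0.38. In all 41.9% were called, beside 11.9% of all genes tested. Thrsp, the thyroid hormone responsive lipogenic factor, fell from 1424, 1133 and 1992 CPM to 248, 335 and 121 CPM (-2.69, SE 0.37, adjusted p = 0.000203). Srebf1, the SREBP1 factor, stood at 140, 360 and 283 CPM in WT and 83.8, 148 and 102 CPM in LKO, with 1 overlapping pair of libraries (-1.23, SE 0.27, adjusted p = 0.00897). Without LKO replicate 1 the call on Srebf1 was lost (-1.06, adjusted p = 0.052), as it was in the fit of all 36 SPF libraries (-1.23, adjusted p = 0.0917). Fitm1, a gene of lipid droplet formation, fell by 2.32 (SE 0.35), the desaturase gene Fads2 by 1.11 (SE 0.18) and Dgat2, which completes triglycerides, by 0.70 (SE 0.12). The enzyme genes Fasn, Acaca and Scd1 were not called. Fasn, at 112, 321 and 442 CPM against 142, 150 and 85.7, had the lowest level of WT in replicate 1 (-1.21, SE 0.41, adjusted p = 0.0747), and was called without that library (-1.59, adjusted p = 0.00684). Acaca was at -0.45 (adjusted p = 0.321) and Scd1 at -0.14 (adjusted p = 0.872). The 5 that rose were led by Lpl and Elovl3, described above, and also held hepatic lipase (Lipc, 0.74, SE 0.14) and Elovl5 (1.03, SE 0.28, adjusted p = 0.0264). Elovl5 lost its call without WT replicate 1 or 3 or LKO replicate 1 or 3, at 0.86, 1.05, 0.89 and 1.05 with adjusted p of 0.0958, 0.0716, 0.11 and 0.0623.

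Glucose and glycogen metabolism was divided, with 7 of 64 genes higher, 8 lower and a median of -0.21. In all 23.4% were called, beside 11.9% of all genes tested. Beside the fall of Gys2 from 313, 339 and 368 CPM to 110, 120 and 116 CPM (chr6:142422613-142473109), Ppp1r3c and Ppp1r3b, which encode glycogen-targeting subunits of protein phosphatase 1, rose. Ppp1r3c went from 67.5, 46.1 and 36.2 CPM to 148, 182 and 176 CPM (1.76, SE 0.21, adjusted p = 6.39e-05), and Ppp1r3b rose by 0.72 (SE 0.12, adjusted p = 0.00137), a call lost in the fit of all 36 SPF libraries (adjusted p = 0.108). Ppp1r3g, another such subunit gene, was at -2.81 and not called (SE 0.90, adjusted p = 0.0599). The glucose transporter Slc2a2 fell from 397, 576 and 550 CPM to 302, 284 and 288 CPM (-0.80, SE 0.13, adjusted p = 0.000702), without overlap in any of these genes. The gluconeogenic enzymes were not called. Pck1 stood at 3048, 3634 and 2154 CPM in WT and 2189, 2060 and 2911 in LKO (-0.30, SE 0.21, adjusted p = 0.415), and Fbp1 was at -0.17 (adjusted p = 0.343). G6pc, glucose-6-phosphatase, was at 492, 600 and 256 CPM against 790, 1127 and 801, higher in all LKO libraries but not called (1.02, SE 0.33, adjusted p = 0.061). It was called without WT replicate 2 (1.27, adjusted p = 0.0405). It was also called with the 6 libraries alone and in the fit of all 36 SPF libraries (1.02 in each, adjusted p = 0.0435 and 0.0203). Pck2 and Eno1 were at -0.41 and -0.36 and were not called.

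Xenobiotic metabolism changed in 31 of 74 genes, 11 upward and 20 downward, 41.9% beside 11.9% of all genes tested. The 5 glutathione transferases of the mu class in this list were all called higher. Gstm2 went from 20.4, 16.8 and 23.7 CPM to 186, 133 and 167 CPM (3.00, SE 0.15, adjusted p = 1.99e-08), Gstm3 from 20.3, 16.3 and 33.5 to 300, 205 and 246 CPM (3.43, SE 0.28, adjusted p = 2.01e-06), and Gstm6 and Gstm1 rose by 1.78 (SE 0.16) and 1.35 (SE 0.12). Gstm4 rose by 0.52 (SE 0.15, adjusted p = 0.0386). These genes resemble one another in sequence, so reads could be divided among them unevenly. A theta class member went the other way, with Gstt2 from 96.5, 69.6 and 107 CPM to 20.4, 12.3 and 14 CPM (-2.54, SE 0.21, adjusted p = 2.43e-06). Cyp2a5, the coumarin hydroxylase, fell from 644, 448 and 578 CPM to 77.6, 50.4 and 98.9 CPM (-2.87, SE 0.21, adjusted p = 1.11e-06). Nr1i3, the xenobiotic receptor CAR, fell from 81.2, 80.5 and 76.4 CPM to 25.2, 38.6 and 29 CPM (-1.35, SE 0.14, adjusted p = 1.27e-05), although 74.9% of its exonic bases lie under another gene and reads there were not counted. The related receptor gene Nr1i2 (PXR) fell by 0.65 (SE 0.13, adjusted p = 0.00457). The CAR target Cyp2b10 was higher at 58.4, 72.4 and 118 CPM against 38.4, 9.55 and 7.54 (2.18, SE 0.61, adjusted p = 0.0308), a call lost without WT replicate 2 or 3 or LKO replicate 2 or 3 (1.85, 1.80, 2.26 and 1.84, with adjusted p of 0.0948, 0.114, 0.0513 and 0.113).

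Sex-biased and growth hormone regulated genes moved without a common direction. The female-biased list had 6 of 26 genes higher and 9 lower with a median of -0.97. The male-biased list had 7 of 34 higher and 6 lower with a median of -0.10. In all 57.7% of the female-biased and 38.2% of the male-biased genes were called, beside 11.9% of all genes tested. Prlr, the prolactin receptor, rose from 67, 62.4 and 66.3 CPM to 201, 217 and 209 CPM (1.68, SE 0.12, adjusted p = 7.09e-07). Socs2, a feedback inhibitor of growth hormone signalling, rose from 6.01, 5.90 and 11.8 CPM to 75.8, 57.7 and 26.3 CPM (2.75, SE 0.61, adjusted p = 0.0088). Both were apart between groups, while Ghr (0.09) and Igf1 (0.27) were not called. Stat5b rose by 0.63 (SE 0.13) and Socs3 fell by 1.84 (SE 0.37). Of the other female-biased genes, Defb1, a defensin, rose by 4.27 (SE 0.35), and Cyp17a1 and Gstt3 fell by 2.50 (SE 0.39) and 1.30 (SE 0.19). Sult1e1, the oestrogen sulfotransferase, rose from 0.584, 0.0468 and 0.104 CPM to 1.45, 1.32 and 4.62 CPM (3.41, SE 0.80, adjusted p = 0.0123), a call lost without WT replicate 2 or 3 or LKO replicate 3 (2.86, 3.07 and 2.58, with adjusted p of 0.0533, 0.0553 and 0.0596). Cux2 and A1bg were too low to be tested. Among male-biased genes Rarres1 rose by 1.59 (SE 0.14), Serpina12 (vaspin) by 1.85 (SE 0.22) and Hsd3b5 by 0.89 (SE 0.23), whereas Themis, Susd4 and Cyp4a12a fell by 3.08 (SE 0.48), 1.5 (SE 0.23) and 0.76 (SE 0.12). The call on Hsd3b5 (adjusted p = 0.0224) was lost without WT replicate 1 or 2 or LKO replicate 1 or 3 (0.77, 0.71, 0.81 and 0.92, with adjusted p of 0.0805, 0.0751, 0.0875 and 0.0515). In the fit of all 36 SPF libraries the calls on Socs3, Sult1e1, Hsd3b5 and Cyp4a12a were lost (adjusted p = 0.0779, 0.0913, 0.111 and 0.185). Mup20 and C6 were at 0.02 and 0.37 and were not called.

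Of 33 cholesterol genes 3 rose and 0 fell, 9.09% beside the 11.9% of all genes tested. Insig2, an anchor that holds SREBP in the endoplasmic reticulum, rose from 197, 121 and 109 CPM to 541, 593 and 692 CPM (2.10, SE 0.22, adjusted p = 1.9e-05), and the HDL receptor Scarb1 rose by 0.66 (SE 0.14, adjusted p = 0.0063). Hmgcs1 rose by 1.54 (SE 0.40, adjusted p = 0.0208), but was not called without WT replicate 1 or 2 or LKO replicate 1 or 3 (1.24, 1.51, 1.12 and 1.52, with adjusted p of 0.0691, 0.0569, 0.115 and 0.0551). Sqle, squalene epoxidase, was at 1.06 and was not called (adjusted p = 0.107). Of 31 bile acid genes 5 rose and 3 fell, 25.8% in all. Cyp7b1, the oxysterol hydroxylase of the alternative pathway, rose from 619, 399 and 526 CPM to 1074, 878 and 1026 CPM (0.95, SE 0.20, adjusted p = 0.00599), and the bile salt export pump Abcb11 from 461, 445 and 532 CPM to 795, 652 and 742 CPM (0.61, SE 0.12, adjusted p = 0.00361). Slco1a4, an uptake transporter, rose by 0.92 (SE 0.14), and the efflux pump Abcb1a fell by 2.63 (SE 0.39). Cyp7a1, the rate-limiting enzyme of bile acid synthesis, was at 174, 122 and 146 CPM against 190, 148 and 77.3 and was not called (adjusted p = 0.894), nor were Cyp8b1, Nr0b2 and Slc10a1. In the fit of all 36 SPF libraries, with its libraries of ZT14 and ZT18, the calls on Cyp7b1, Abcb11 and Hmgcs1 were lost (adjusted p = 0.0855, 0.0806 and 0.0509). Cyp7b1 and Abcb11 were each called under 11 of 12 alternatives.

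In amino acid catabolism 9 of 62 genes rose and 7 fell, 25.8% in all beside 11.9% of all genes tested. Gldc, the glycine cleavage decarboxylase, rose from 76.2, 89.9 and 77.4 CPM to 194, 196 and 224 CPM (1.34, SE 0.11, adjusted p = 2.94e-06). The methionine cycle was divided, with Bhmt and Cbs higher by 1.26 (SE 0.20) and 0.75 (SE 0.13) and Ahcy lower by 0.85 (SE 0.15). Prodh2, which degrades hydroxyproline, and the arginine carrier Slc7a2 fell by 1.09 (SE 0.13) and 0.99 (SE 0.18). Of the key members Cps1, Ass1, Cth, Tat and Tdo2 none was called, with values from -0.49 to 0.26. The acute phase and interferon list had 5 of 49 genes higher and 5 lower, 20.4% in all. All 3 fibrinogen chain genes rose, Fga from 2806, 3516 and 3517 CPM to 6813, 5737 and 6657 CPM (0.97, SE 0.15, adjusted p = 0.000466), Fgb by 0.72 (SE 0.15, adjusted p = 0.00539) and Fgg by 0.69 (SE 0.16, adjusted p = 0.00987). Saa4, a constitutive serum amyloid, and Irf1 fell by 1.58 (SE 0.34) and 0.94 (SE 0.18), while Saa1, Lcn2, Ifit1 and Cd74 were not called. With the 6 libraries alone Saa1 was called lower (-1.68, adjusted p = 0.00114). The calls on Cbs, Slc7a2 and Irf1 were lost in the fit of all 36 SPF libraries (adjusted p = 0.0823, 0.0664 and 0.0657).

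The remaining lists had 5.56% to 22.5% of their tested genes called, beside 11.9% of all genes tested. The heat shock (5.56%), endoplasmic reticulum stress (10.7%), glucocorticoid (11.8%) and heme and metal (12.1%) lists lay below or near that share. Heme and metal handling had 2 of 33 genes higher and 2 lower. Slc30a10, a manganese exporter, rose from 17.7, 27.8 and 27.3 CPM to 82.3, 92 and 85.6 CPM (1.84, SE 0.20, adjusted p = 2.55e-05) and Cp, ceruloplasmin, by 0.92 (SE 0.12), while Alas1, Tfrc, Hamp, Mt1 and Mt2 were not called. Endoplasmic reticulum stress had 3 of 28 genes lower and 0 higher, namely Asns, Trib3 (-2.0, SE 0.45) and Creb3l3 (-0.48, SE 0.09), while the chaperones Hspa5 (0.10) and Sdf2l1 (0.17) were not called. Trib3 was at the threshold without LKO replicate 1 (-1.82, adjusted p = 0.05). The cell cycle list had 3 of 27 higher (Cdkn1a, Mcm7 and Mcm4) and 2 lower (Tk1 and Ccne1), and Mki67, the marker of dividing cells, was at 0.41 (adjusted p = 0.625). The replication helicase genes Mcm7 (0.73, SE 0.18) and Mcm4 (0.72, SE 0.20) lost their calls without WT replicate 3 (0.67 and 0.71, adjusted p = 0.06 and 0.0821) or LKO replicate 1 (0.65 and 0.60, adjusted p = 0.072 and 0.138), and Mcm4 also without WT replicate 1 or LKO replicate 3 (0.67 and 0.64, adjusted p = 0.0834 and 0.113). Glucocorticoid-responsive genes had 2 of 17 higher (Cdkn1a, which is also in the cell cycle and output lists, and Sgk1, 1.18, SE 0.21) and 0 lower, with Fkbp5, Tsc22d3 and Tat not called. Of 18 heat shock and temperature genes Hspb1 fell by 2.0 (adjusted p = 0.0248) and the cold-inducible Cirbp (0.23) and Rbm3 (0.03) and the chaperones Hspa1b (0.09) and Hsp90aa1 (-0.09) were not called. The Hspb1 value followed WT replicate 1, at 7.94 CPM beside 2.39 and 1.20, and was -0.92 without it (adjusted p = 0.137). The call on Hspb1 was also lost without any of the 3 LKO libraries in turn (-1.83, -2.01 and -2.18, with adjusted p of 0.102, 0.0704 and 0.0562). Of 40 hormone and apolipoprotein genes 5 rose and 4 fell, among them Inhba, the activin subunit (1.52, SE 0.33), and Retsat, retinol saturase (-1.02, SE 0.21), while Fgf21, Angptl8 and Apoa4 were not called. In the fit of all 36 SPF libraries Trib3, Mcm4, Hspb1 and Inhba lost their calls (adjusted p = 0.0683, 0.103, 0.0766 and 0.103), and with the 6 libraries alone Mcm4 and Hspb1 did (adjusted p = 0.0758 and 0.073).

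Many genes that differed between ZT10 and ZT22 in intact livers were displaced in LKO livers at ZT10 in the direction of their ZT22 level. The counts give the direction and not whether that level was reached or passed. The lists came from GF WT mice, which share no library with the SPF comparison. In those mice 654 of 13203 genes tested (4.95%) were higher at ZT10 than at ZT22 and 695 (5.26%) were higher at ZT22. Of the 654, 205 were lower and 11 higher in SPF LKO at ZT10, with a median log2 fold change of -0.27. Of the 695, 690 were tested and 239 were higher and 30 lower, with a median of 0.27. The 11733 genes tested that did not differ between the times had 516 higher, 569 lower and a median of -0.001. With a log2 difference of at least 1 between the times, 101 of 206 genes high at ZT10 were lower and 5 higher (median -0.82), and 150 of 261 high at ZT22 were higher and 11 lower (median 0.87). The SPF WT mice show the same for single genes. Clpx stood at 80.8 ± 6.52 CPM at ZT10 and 535 ± 90.5 at ZT22 in WT (SD, n = 3 each), and at 564 ± 50.6 and 520 ± 39.4 in LKO. Elovl3 stood at 117 ± 41.1 and 1193 ± 441 CPM in WT and at 1492 ± 79.9 and 1707 ± 139 in LKO (SD, n = 3 each). For both genes the LKO livers of ZT10 were at the level that WT livers reached at ZT22. Other genes of the list went past it. Slc34a2 stood at 17.03 ± 3.996 CPM in LKO at ZT10 and 2.514 ± 0.6 in WT at ZT22. Loxl4 stood at 24.44 ± 2.299 and 5.426 ± 1.685 CPM, and Npas2 at 16.79 ± 2.511 and 9.237 ± 1.2 (SD, n = 3 each). Arntl was different, since it went from 1.28 ± 0.603 to 36.1 ± 3.35 CPM in WT and from 9.05 ± 0.50 to 14.1 ± 2.15 in LKO (SD, n = 3 each), between the WT extremes at either time. Lpl was apart from this pattern, since its highest SPF WT library over the 6 times had 63.4 CPM.

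**Figure D3:**
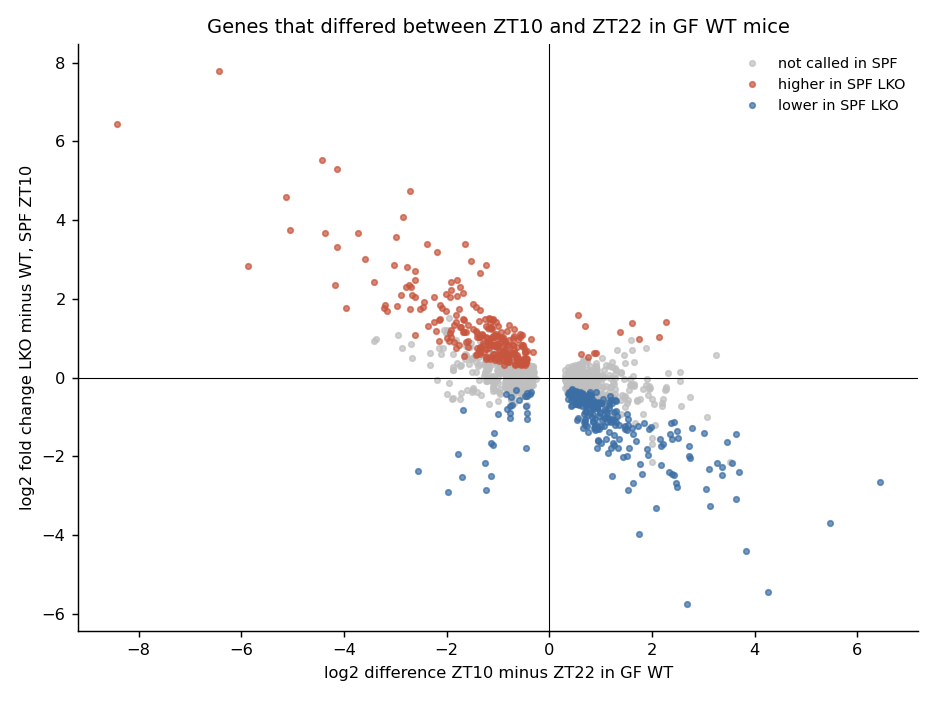
Each point is a gene that differed between ZT10 and ZT22 in GF WT mice, with that difference on the x axis (log2, ZT10 minus ZT22) and its log2 fold change in SPF LKO against SPF WT at ZT10 on the y axis. Of the 654 genes to the right 205 were lower in LKO and 11 higher, and of the 690 tested to the left 239 were higher and 30 lower.

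**Figure D4:**
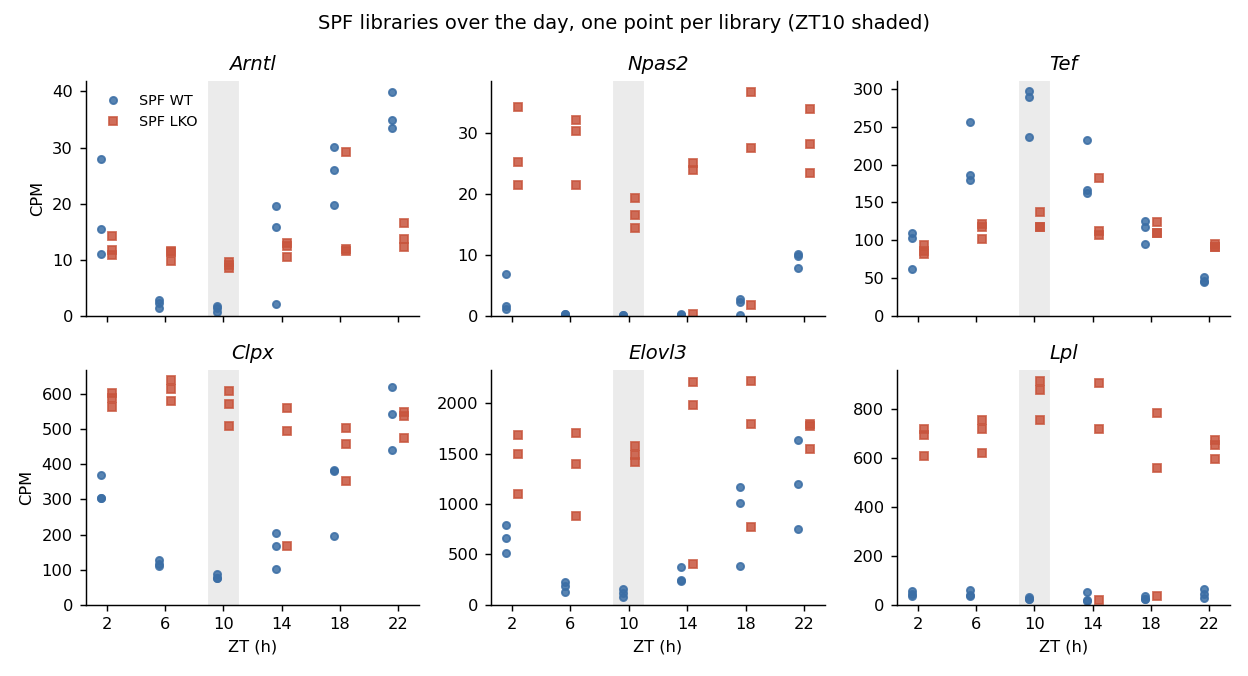
Level of 6 genes in CPM in every SPF WT (circles) and SPF LKO (squares) library over the 6 zeitgeber times, with ZT10 shaded. At ZT10 the WT and LKO libraries are apart for all 6, at ZT22 they overlap for Clpx and Elovl3, and 1 library labelled LKO at ZT14 and 1 at ZT18 lie at WT levels for Lpl and entered only the alternative fit of all 36 SPF libraries.

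The comparison was then set beside the same genotypes at other times. At ZT22 467 of 13762 genes (3.39%) were called and at ZT6 1319 of 13763 (9.58%). Of the 1603 genes called at ZT10, 355 were called at ZT22 as well, 22.1% of the ZT10 calls and 76% of the ZT22 calls, and 348 of them in the same direction. At ZT6 765 were called as well, 47.7% and 58% of either list, all in the same direction. The test of the difference between effects called 111 genes (0.807%) between ZT10 and ZT22 and 2 genes (0.0145%) between ZT10 and ZT6. At an unadjusted p under 0.05 these tests had 1346 of 13762 genes for ZT22 and 1251 of 13763 for ZT6. The few calls for ZT6 therefore do not show that the effects at ZT6 and ZT10 were equal. Of the 111, 49 had opposite signs at the 2 times, counted by sign alone without a threshold at ZT22. Some of these were near 0 at ZT22, such as Clpx (-0.03) and Clock (-0.12), and others, such as Arntl (-1.34), were not. The test of the difference uses the ZT10 libraries in both instances, so its results are not independent of the comparison above. Without SPF WT ZT10 replicate 3, SPF LKO ZT10 replicate 1 or 3, or SPF LKO ZT22 replicate 1 or 2, the 111 fell to 55, 52, 61, 69 and 66. With DESeq2, or without the filter on low counts, the 2 genes of ZT6 became 88 and 419, and with DESeq2's size factors in edgeR 0.

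Clock genes were prominent among the differences by time. Arntl was higher in LKO at ZT10 and lower at ZT22 (-1.34), a difference of 4.16 (adjusted p = 1.3e-05). Per3 was lower at ZT10 and higher at ZT22 (1.20), a difference of -3.62 (adjusted p = 0.000318), and Tef was lower at ZT10 and higher at ZT22 (0.98), a difference of -2.13 (adjusted p = 1.3e-05). Npas2 was higher at both times, by 7.80 and 1.64, and the difference of 6.16 was called (adjusted p = 1.3e-05). For Dbp the difference was -4.13 (adjusted p = 0.0017) and for Wee1 -2.52 (adjusted p = 0.00109). Cry1 and Nr1d2 were called in the same direction at both times, with no called difference between ZT10 and ZT22. Among metabolic genes Clpx, Elovl3, Thrsp, Gys2, Slc30a10 and Avpr1a changed at ZT10 and were not called at ZT22, where they were at -0.03, 0.53, 0.20, -0.32, 0.11 and -0.18, with called differences of 2.83, 3.14, -2.90, -1.24, 1.72 and 2.22. Lpl, Ntrk2, Tox2, Nat8, Mme and Mup17 were changed at ZT22 too, by 3.82, 6.56, 5.29, -3.85, -4.01 and -5.56, and none of these had a called difference. The fibrinogen chains were near 0 at ZT6 (-0.01, -0.02 and 0.07) and ZT22 (0.03, 0.01 and -0.04), but the difference from ZT10 missed the threshold for ZT22 (adjusted p = 0.0613, 0.0953 and 0.134). Of the 2 genes called against ZT6, Tsc22d1 was at -0.43 at ZT10 and 1.53 at ZT6.

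**Figure D5:**
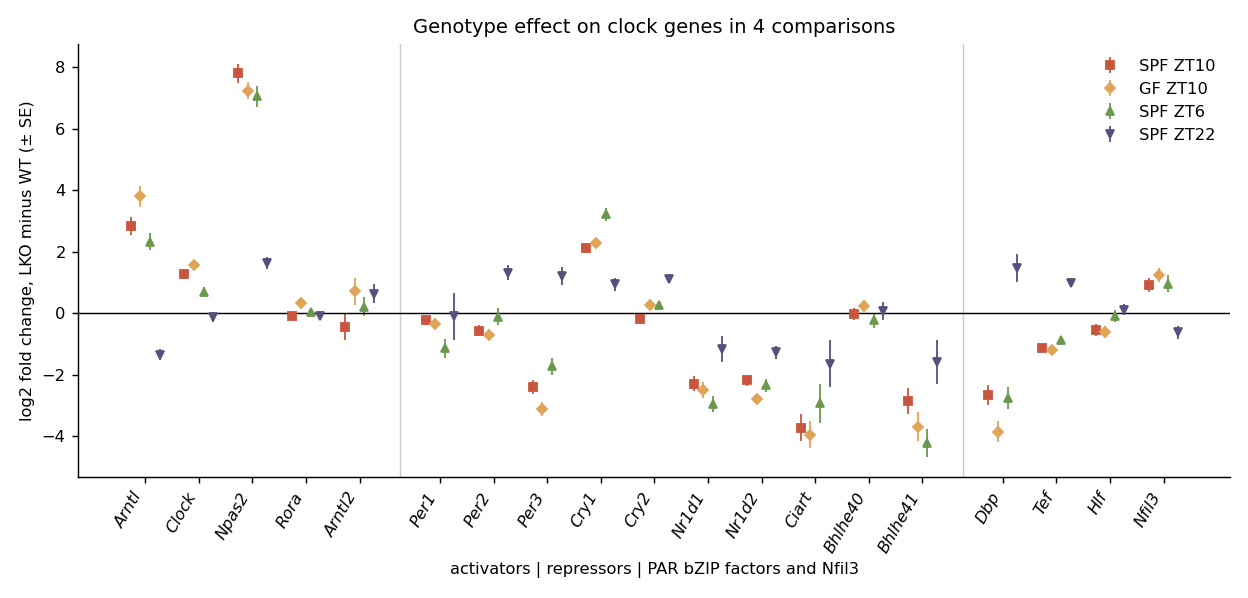
Log2 fold change, LKO minus WT, with its SE for clock genes in SPF mice at ZT10, GF mice at ZT10, SPF mice at ZT6 and SPF mice at ZT22. The SPF and GF points of ZT10 lie close for most genes (Npas2 7.80 and 7.23, Cry1 2.13 and 2.29), and the ZT22 points have the other sign for Arntl (-1.34), Per3 (1.20), Dbp (1.47) and Tef (0.98).

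In GF mice at the same time 1764 genes (13.1%) were called, and 1092 of them were called in SPF mice too, 68.1% of the SPF calls and 61.9% of the GF calls. All 1092 had the same direction, and 1551 of the 1603 SPF calls had the same sign in GF livers, which come from other mice. The clock genes followed this, with Arntl at 3.80 in GF, Npas2 at 7.23, Ciart at -3.94, Nr1d2 at -2.78 and Dbp at -3.84. The test of the difference between the GF and SPF effects called 1 gene (0.00744%), Cyp3a11 (chr5:145854426-145879964), a major drug-metabolizing cytochrome P450. In SPF mice it stood at 6297, 4691 and 4549 CPM in WT and 6013, 5428 and 8051 in LKO (0.33, SE 0.16, adjusted p = 0.219), overlapping. In GF mice it stood at 517, 523 and 572 CPM in WT and 119, 133 and 135 CPM in LKO (-2.06, adjusted p = 1.35e-06). The difference of -2.39 (SE 0.23, adjusted p = 0.000747) was called under all 16 alternatives, from -2.56 to -2.21, but Cyp3a genes are near identical and the value of each is uncertain. At an unadjusted p under 0.05 the same test had 691 of 13442 genes, near the share that such a threshold passes when nothing differs. At an adjusted p under 0.05 DESeq2 called 20, and the fit without the filter on low counts called 208. Mean Alb was 102200 CPM in the GF WT livers of ZT10 and 31590 CPM in the GF LKO livers.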

How the data were processed

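The values deposited are raw counts of reads for each gene. To make them the authors aligned single-end reads of stranded mRNA libraries with STAR 2.6.1b to mm10 (GRCm38) and counted exonic reads with featureCounts 2.0.0 on Ensembl release 97, unstranded, leaving out multi-mapping reads and reads shared by several genes. Values of overlapping, antisense and near-identical genes are therefore uncertain. Of the exonic bases of genes named here, another gene overlaps 33.3% of Hacl1, 20.0% of Irf1 and 18.4% of Retsat. The table holds 55573 genes and 72 libraries, 0 of its columns were unused, and names and coordinates came from GENCODE vM21, which held 55480 of the genes.

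Groups, times and replicate numbers came from the labels. edgeR 4.0.16 (R 4.3.3) was run on the deposited counts with TMM scaling, filterByExpr and the quasi-likelihood test, with Benjamini-Hochberg adjustment over all genes kept, at a threshold of 0.05. The main comparison and that in GF mice were contrasts of 1 fit of the 12 libraries of ZT10, so their spread is shared. Differences from ZT22 and ZT6 were fitted on the 12 SPF libraries of each pair of times, and ZT10 against ZT22 in GF WT mice on the 18 GF WT libraries. ZT14 and ZT18 were not tested, since libraries there stood at the level of the other genotype. CPM used TMM-scaled library sizes. The figures and tables were made with Python 3.11.15 (pandas 2.3.3, numpy 2.4.6, matplotlib 3.10.9), and the fits were tested on simulated data.

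The comparison and the gene lists were chosen with earlier results of these data known, so no list is independent support. Genes named were the 10 largest increases and 10 largest decreases among called genes whose mean log2 CPM reached 1 and whose groups did not overlap, all clock genes, the key members of each list, the 3 called members of each list with the smallest p in each direction, and the 5 genes with the smallest p in each test of a difference. Gstm1, Gstm4, Ppp1r3g, Nr1i2, Dgat2 and the cell type markers lie outside this rule and were named after their values were seen. Some genes of these lists are counted in the totals and not reported here by name. Alternatives covered DESeq2 1.42.0, its size factors within edgeR, no filter, the libraries in the fit, a replicate block, stricter thresholds and each replicate left out.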

Additional observations from a re-analysis of the deposited data

Results flagged for a closer look

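Each gene here had a genotype effect at ZT10 in SPF mice that differed from another condition by the test of the difference itself (edgeR's quasi-likelihood test, adjusted p under 0.05). Groups of 3 libraries were too small for a test of single outlying libraries. Against GF mice the gene was Cyp3a11, with a GF effect minus SPF effect of -2.39.

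Against ZT22 the differences, ZT10 effect minus ZT22 effect on the log2 scale, were larger upward at ZT10 for the clock activators Arntl (4.16), Npas2 (6.16) and Clock (1.40) and for Nfil3 (1.54). They were downward for Per2 (-1.89), Per3 (-3.62), Cry2 (-1.31), Dbp (-4.13), Tef (-2.13) and the output genes Wee1 (-2.52), Nampt (-0.77) and Gys2 (-1.24). Among the largest increases and the other output genes they were 5.50 for Cdkn1a, 3.03 for Slc34a2, 2.05 for Loxl4, 2.90 for 3930402G23Rik, 3.14 for Elovl3 and 0.99 for Tars. Among lipid genes they were 1.66 for Insig2, -2.90 for Thrsp, -0.92 for Fads2, 1.23 for Hacl1 and 1.51 for Crot. Of the remaining genes Gldc had 1.01, Defb1 2.59, the manganese exporter Slc30a10 1.72, Clpx 2.83 and Avpr1a 2.22. All these but Cdkn1a, Loxl4, 3930402G23Rik, Per2, Nfil3, Nampt, Insig2, Fads2, Hacl1, Crot, Gldc and Defb1 were called under each of 16 alternatives, and those 12 were called under 11, 11, 14, 12, 7, 5, 6, 6, 13, 13, 6 and 7 of them.

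Against ZT6 the ZT10 effect of Tsc22d1 was lower (-1.97, adjusted p = 0.0475), and the call held in 9 of 16 alternatives.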

How the results depend on the processing

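The count of 1603 genes was 1807 with DESeq2, 1588 with its size factors in edgeR, 2057 without the filter, 1273 with the 6 libraries alone and 1319 with all 36 SPF libraries. It was 688 at a log2 fold change of at least 1, 806 at an adjusted p under 0.01, and 947 to 1600 with 1 library left out, with the lowest values without LKO replicate 1 or 3 (947 and 1063). The 1764 genes of GF mice became 761 at that fold change and 1336 to 1471 with 1 library left out, and the 1349 genes that differed between ZT10 and ZT22 in GF WT became 472. The single gene whose effect differed between GF and SPF mice became 20 with DESeq2, 2 with its size factors, 208 without the filter and 1 to 5 with 1 library left out. The 111 genes that differed from ZT22 became 267 with DESeq2, 527 without the filter and 52 to 147 with 1 library left out, and the 2 that differed from ZT6 became 88, 419 and 0 to 11 (0 with DESeq2's size factors). The 205 genes high at ZT10 in GF WT and lower in LKO and the 239 high at ZT22 and higher in LKO became 138 to 232 and 187 to 259, alternatives chosen after seeing the data. The cause of these shifts was not tested. Of 122 named genes called, 86 were called under all 12 alternative fits, 36 were lost under at least 1, and no call among the 188 tested reversed. Of the 66 named genes not called, 22 were called under at least 1 alternative fit. Same-numbered SPF WT and LKO libraries of ZT10 had correlated deviations of -0.092, 0.212 and -0.013, not every library correlated best with its own number, and the numbers do not pair the samples. With a replicate block the counts were 1410 in SPF, 1607 in GF, 1 for GF against SPF, 122 for ZT22 and 2 for ZT6, and 186 and 223 for the day lists. With 3 libraries a side, small changes can be missed.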
